A study of Mus musculus with 4 samples.

Results

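The SLAM family receptors *Slamf1*, *Slamf6*, *Slamf7*, *Ly9*, *Cd48* and *Cd84* and the adaptor gene *Sh2d1a*, which encodes SAP, were examined in intestinal NKT cells. These 7 genes were chosen by name, as receptors and an adaptor of a signal that NKT cell selection needs, and all 7 were found among the 25239 genes of the deposited table. They were measured by bulk RNA-seq in 4 libraries of NKT cells sorted from the SI-LP (small intestinal lamina propria) of WT mice, labelled C57BL/6Jax. The mice were young adults, and according to the study's methods all had received an anti-ARTC2 nanobody shortly before the tissue was taken. Cells were sorted as TCRβ+ and positive for the CD1d tetramer loaded with PBS-57, and negative for B220, CD11b, CD11c and CD8. The libraries form a single condition. The titles of replicates 3 and 4 carry the word First, and those of replicates 1 and 2 the word Second. These words are read here as a first and a second experiment, although the titles do not say what they count. The values below therefore describe levels and their spread in SI-LP NKT cells. Lymphoid NKT cells were not analysed here.

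NKT cells are selected in the thymus by cortical thymocytes that present lipids on CD1d, and they need a second signal from SLAM receptors that meet their like on the neighboring thymocyte. Most SLAM receptors bind themselves, and their cytoplasmic tails carry tyrosine motifs that dock SAP, which in turn brings in the kinase FYN. SLAM (*Slamf1*) and Ly108 (*Slamf6*) carry this signal in selection, Ly9 (CD229) restrains NKT cell numbers, and SLAMF7 (CRACC) prefers the related adaptor EAT-2 to SAP. CD48 is a lipid-anchored family member without such a tail, which binds CD2 and 2B4.

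The libraries held 3882803 to 8732858 counts on genes, so 3 counts correspond to 0.287 to 0.750 CPM (counts relative to library size, scaled with edgeR's TMM factors). The ribosomal precursor *Rn45s* took 7.36% to 28.1% of the counts. All 7 T cell markers and all 6 NKT cell markers (such as *Zbtb16* and *Tbx21*) were above 3 counts in all 4 libraries. The 2 CD8 genes were at 0 to 12 counts, and the summed T cell markers were lowest in replicate 2 (1347 CPM) and highest in replicate 3 (5080 CPM). Epithelial markers (15 genes) took 0.0132% of the counts in replicate 3, 0.0878% in replicate 1, 0.863% in replicate 2 and 2.78% in replicate 4. Plasma cell markers (6 genes) took 0.671% and 0.821% in the second experiment, but 0.000547% in replicate 3 and 0.0261% in replicate 4. In bulk libraries, fewer cells of a type and less RNA per cell cannot be told apart.

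The 6 receptor genes lie in one cluster on chromosome 1 together with *Cd244a*, the gene of 2B4, between positions 171559193 and 171948958 (GRCm38), a stretch of 390 kb. The interval held 10 genes of the table, of which 7 were SLAM family genes and the other 3 were short RNA genes or loci without an established name (*Mir7683*, *LOC115487184* and *Gm37065*). *Sh2d1a* lies apart, on the X chromosome (42502565 to 42522095). Exons of the 7 genes overlapped no exon of another gene, so that their counts did not have to be split with a neighbor. Bases just upstream of the gene start are shown for the receptor genes of the cluster, because these neighbors differed widely in level. The sequences are from RefSeq (GRCm38.p6) and read 5′ to 3′ on the gene's own strand, each covering the 100 bases before the start. Promoters of *Ly9* and *Sh2d1a* are named only, so 5 of the 7 genes are shown. Capitals mark matches, on either strand, to AACNG (the core bound by MYB, a factor known to be needed for SLAM receptor and SAP expression in NKT cell precursors), GGAAG (the core bound by ETS factors) or CAGNTG (an E-box of the kind bound by E proteins).
Slamf7 (chr1:171649000-171649099, minus strand): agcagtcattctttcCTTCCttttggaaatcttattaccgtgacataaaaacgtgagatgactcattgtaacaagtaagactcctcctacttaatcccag
Cd48 (chr1:171681892-171681991, plus strand): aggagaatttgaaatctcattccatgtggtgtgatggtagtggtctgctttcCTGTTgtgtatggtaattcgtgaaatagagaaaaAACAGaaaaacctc
Slamf1 (chr1:171767032-171767131, plus strand): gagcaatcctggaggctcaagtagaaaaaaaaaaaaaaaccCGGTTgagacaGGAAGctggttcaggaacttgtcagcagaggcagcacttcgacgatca
Cd84 (chr1:171839597-171839696, plus strand): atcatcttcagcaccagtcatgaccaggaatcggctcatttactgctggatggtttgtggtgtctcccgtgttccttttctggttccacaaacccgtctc
Slamf6 (chr1:171917362-171917461, plus strand): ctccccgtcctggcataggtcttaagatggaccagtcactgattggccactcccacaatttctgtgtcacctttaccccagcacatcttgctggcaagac
AACNG was found before *Slamf1* and *Cd48* (2 of 5), where 41.0% of 32851 promoter windows of this length in the RefSeq table hold it. GGAAG was found before *Slamf7* and *Slamf1* (2 of 5, against 35.7%) and CAGNTG before 0 of 5 (against 20.8%). No base lay in more than 1 of these motifs. The window of *Slamf7* lies upstream of one of its annotated starts, between exons of a longer transcript. These matches are a description of the letters only. GC content was 38% for *Slamf7* and for *Cd48*, 47% for *Slamf1*, 50% for *Cd84* and 53% for *Slamf6*, against a mean of 55.6% over all windows.

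**Figure D1:**
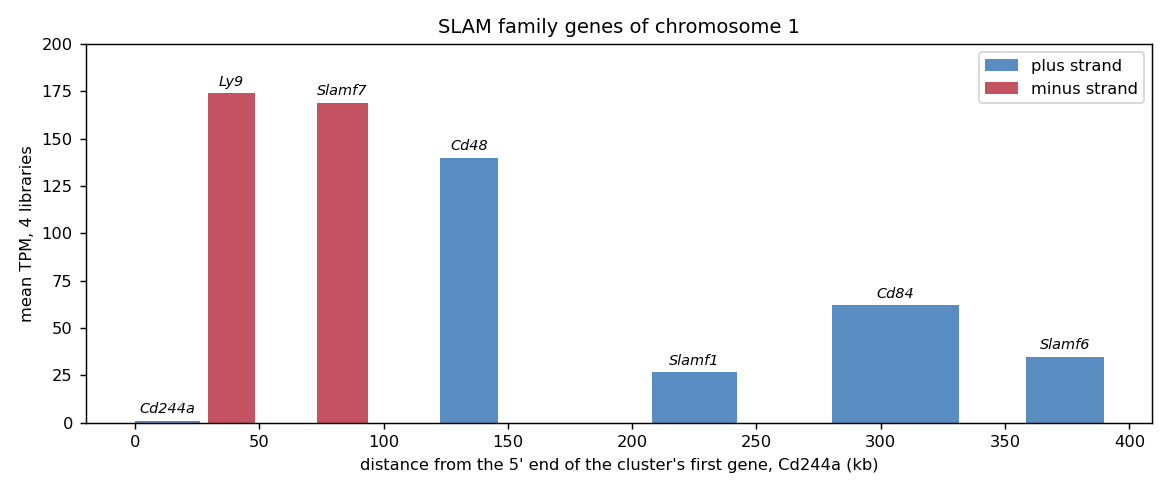
SLAM family genes of the chromosome 1 cluster, drawn to scale as distance in kb from the first base of *Cd244a*, with bar height giving mean TPM over the 4 SI-LP NKT cell libraries and color giving the strand. The neighboring genes *Ly9*, *Slamf7* and *Cd48* stand at 140 to 174 TPM, and *Slamf1*, *Cd84* and *Slamf6*, farther along, at 26.8 to 62.0 TPM. *Cd244a*, the gene before *Ly9*, stands at 1.18 TPM. Without division by length, *Cd84* (mean 142 CPM) stands above *Cd48* (mean 59.97 CPM).

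Per length (TPM, the counts divided by exon length and scaled to the same total in each library), the 7 genes fell into a high and a low part. *Ly9*, *Slamf7* and *Cd48* were the first 3 in every library, and *Cd84*, *Slamf6*, *Sh2d1a* and *Slamf1* shared the lower ranks. *Slamf6* and *Slamf1*, the receptors of the selection signal, had the lowest mean TPM of the 6 receptors, although both exceeded *Cd84* in replicate 2. The place of *Cd48* rests on the division by exon length, since in CPM *Cd84* (mean 142) stood above *Cd48* (mean 59.97). All 7 genes passed the filter on low values (at least 10 counts in at least 2 libraries), as did 11689 genes in all.

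*Ly9* had the highest mean level, 174 ± 87.7 TPM (SD, n = 4), at a mean percentile of 90.7 among the genes that passed the filter. Its values in replicates 1 to 4 were 288, 83.8, 191 and 133 TPM. Replicate 1 was thus highest and replicate 2 lowest, and the experiments overlapped. *Slamf7*, known for its part in NK and plasma cells, followed with 308, 92.5, 161 and 114 TPM (mean 169 ± 97.4, percentile 90.5). The order of the libraries was the same as for *Ly9*. *Cd48*, the CD2 ligand, had 303, 76.3, 122 and 58.2 TPM (140 ± 112, percentile 86.2). Its replicate 1 stood well above the other 3 libraries, and without it the mean was 85.5 TPM.

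*Slamf7* and *Cd48* are also expressed by cells outside the sort gate. In replicate 3, where the 6 plasma cell markers summed to 6.72 CPM and *Mzb1*, *Tnfrsf17* and *Pou2af1* were at 0 counts, *Slamf7* had 1164 counts (261 CPM). The other plasma cell markers in replicate 3, *Jchain*, *Derl3* and *Sdc1*, had 11, 12 and 7 counts. Replicates 1 and 2 held like sums of plasma cell markers, 6741 and 6854 CPM, beside the highest and the lowest *Slamf7* level, 409 and 119 CPM. Replicate 4 had 253 CPM of these markers and 182 CPM of *Slamf7*. The B cell markers *Ms4a1* and *Pax5* were at 0 to 2 counts in all libraries. Of the other B cell markers, *Cd79a* had 269 and 288 counts in the second experiment and 0 in the first. Myeloid markers (7 genes, with 0 of them at 0 counts in replicates 3 and 4) summed to 67.1, 74.7, 26.4 and 157 CPM in replicates 1 to 4, where *Cd48* had 122, 29.8, 60.04 and 28.2 CPM. Whether RNA of such cells added to the counts of the receptors in any library, replicate 3 included, was not tested.

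*Cd84*, a self-binding receptor of T, B and myeloid cells, had 123, 9.90, 84.8 and 30.4 TPM in replicates 1 to 4 (62.0 ± 51.4, percentile 66.1). Its libraries spanned a wide range, from 210 counts in replicate 2 to 1844 in replicate 1. On the CPM scale the highest library exceeded the lowest 12.8-fold, the widest ratio among the receptors. *Slamf6*, which encodes Ly108, had 67.8, 19.3, 32.5 and 19.5 TPM (34.8 ± 22.9, percentile 58.9). *Slamf1* had 30.6, 18.7, 43.6 and 14.0 TPM (26.8 ± 13.2, percentile 53.5). Replicate 1 was highest for *Slamf6* and replicate 3 for *Slamf1*.

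*Sh2d1a* was the member nearest to the limit of detection and varied most. It had 46, 9, 125 and 38 counts in replicates 1 to 4, which is 19.9, 2.76, 71.3 and 24.5 TPM (29.6 ± 29.3, percentile 50.3). Both libraries of the first experiment lay above both of the second. Without replicate 3 the mean was 15.7 TPM. The highest library exceeded the lowest 32.6-fold in CPM, against a median ratio of 3.62 over the 7 members and of 3.26 over the 8089 genes that reached 10 counts in each library. *Sh2d1a* itself is not among the 8089 genes, which by their choice hold no library under 10 counts. At 9 counts, the value of replicate 2 carries a large counting error.

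**Figure D2:**
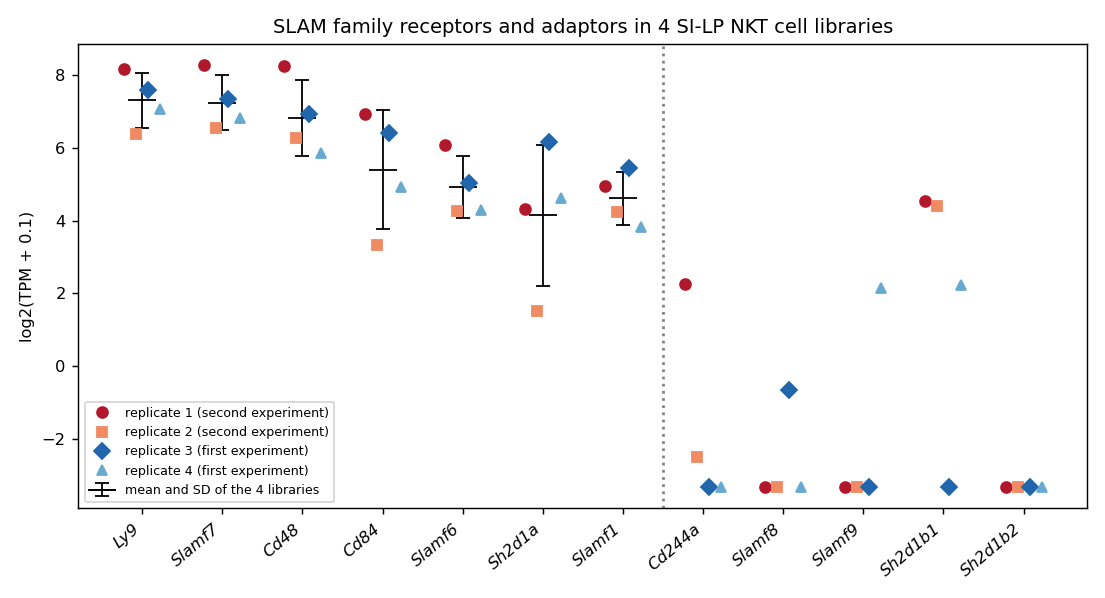
log2(TPM + 0.1) of the 7 SLAM receptor and SAP genes (left of the dotted line, in order of mean TPM) and of 3 other SLAM receptors and the 2 EAT-2 type adaptors (right), one point per SI-LP NKT cell library. For the 7 genes, black lines give mean and SD of the log2 values of the 4 libraries. *Ly9*, *Slamf7* and *Cd48* lie highest in each library, *Sh2d1a* spreads most of the 7, and points at the bottom right are libraries with 0 counts.

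Neighbors in the order were compared within libraries by the log2 difference of TPM (pseudocount 0.1). The order itself was taken from the mean TPM of these same libraries, so the directions are a description. For 2 of the 6 neighbor pairs the direction was the same in all 4 libraries. *Slamf7* exceeded *Cd48* by 0.42 ± 0.40 log2 units, but by only 0.03 in replicate 1, and *Cd48* exceeded *Cd84* by 1.42 ± 1.06. Both pairs had p = 0.13 in the two-sided exact permutation test (2 of 16 sign flips), which is the smallest p that 4 libraries allow (0.375 after Benjamini-Hochberg adjustment over the 6 pairs). For the other neighbor pairs the direction changed between libraries, and the mean difference was smaller than its SD. *Ly9* exceeded *Slamf7* by 0.06 ± 0.21, with *Slamf7* the higher in replicates 1 and 2 and *Ly9* in replicates 3 and 4. *Cd84* exceeded *Slamf6* in 3 of 4 libraries, by 0.48 ± 1.01, and *Sh2d1a* changed places with *Slamf6* and with *Slamf1* from library to library. Over all 21 pairs, 14 had the same direction in each of the 4 libraries.

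Some ratios within a library were far steadier than the levels themselves, while others were not. The ratio of *Slamf7* to *Slamf6* had the smallest SD of the 21 pairs and was picked after the values were seen. The largest SD was that of *Cd48* to *Sh2d1a*, 1.96 log2 units. *Slamf7* exceeded *Slamf6* by 2.18, 2.26, 2.30 and 2.54 log2 units of TPM in replicates 1 to 4, a mean of 2.32 ± 0.15, while the level of *Slamf7* itself varied 3.43-fold and that of *Slamf6* 3.62-fold in CPM. The difference between *Cd48* and *Slamf6* was 1.90 ± 0.24 log2 units. That between *Slamf7* and *Sh2d1a* was 3.95, 5.02, 1.17 and 2.21 log2 units (3.09 ± 1.72), so the adaptor gene did not keep step with this receptor.

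The composition of the family was measured as each receptor's share of the summed TPM of the 6 receptors, which does not depend on how libraries are scaled. *Ly9*, *Slamf7* and *Cd48* together made up 80.3%, 84.1%, 74.6% and 82.7% of it in replicates 1 to 4 (80.4% ± 4.16). As shares of the receptor counts, without length, these 3 genes held 71.1% ± 7.19, with *Cd48* at 8.65% and *Cd84* at 18.0%. *Slamf7* alone held 25.3% to 30.8%. *Slamf6* held 6.05%, 6.42%, 5.13% and 5.27%, and *Slamf1* 2.73%, 6.23%, 6.87% and 3.81%. The share of *Cd84* was 11.0%, 3.29%, 13.4% and 8.23%, lowest in replicate 2.
The shares of *Cd48* were 27.0% and 25.4% in the second experiment and 19.2% and 15.8% in the first, and those of *Ly9* were 25.7% and 27.9% against 30.1% and 36.1%. The shares of *Slamf6* were also apart, higher in the second experiment. These ranges did not overlap, though by counts those of *Ly9* did. The ranges of *Slamf1*, *Slamf7* and *Cd84* overlapped. In CPM, a different measure from these shares, 14.7% of all genes were higher and 14.4% lower in the second experiment without overlap. No receptor gene of the family was among them, and how often such shares separate was not measured. An exact permutation test of 2 against 2 libraries cannot go below p = 0.333, and shares of a fixed total are not independent of each other. By counting error alone the shares are precise. Of the receptor counts, *Cd48* held 10.7% (95% Wilson interval 10.1% to 11.4%) in replicate 1 and 6.04% (5.04% to 7.21%) in replicate 4.

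**Figure D3:**
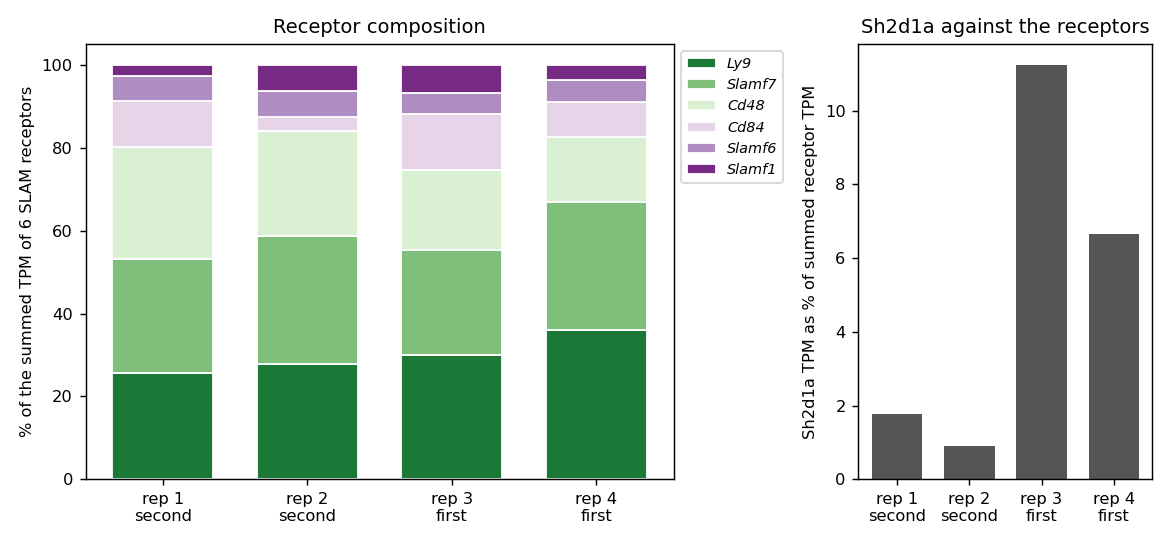
Left, share in percent of each receptor gene in the summed TPM of the 6 SLAM receptor genes, one stacked bar per SI-LP NKT cell library. Right, *Sh2d1a* TPM in percent of the same sum. *Ly9*, *Slamf7* and *Cd48* make up 74.6% to 84.1% of each bar, and *Sh2d1a* stands at 0.917% to 11.2%.

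*Sh2d1a* amounted to 1.78% and 0.917% of the summed TPM of the 6 receptors in replicates 1 and 2, and to 11.2% and 6.65% in replicates 3 and 4. This sum is not limited to receptors that dock SAP, since it includes *Cd48* and *Slamf7*. The value of replicate 2 rests on 9 counts of *Sh2d1a*. The receptors summed to 1121, 300.5, 634 and 369 TPM in replicates 1 to 4. Replicate 1 thus had the highest receptor sum in TPM and replicate 3 the highest *Sh2d1a*.

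The experiments were compared across all genes with edgeR's quasi-likelihood test (second minus first, 2 libraries each), to see whether a member differed by more than the libraries of one experiment do. None of the 7 members passed, with 0 of 7 at an adjusted p under 0.05 (0% of all 11689 genes) and 0 of 7 at an unadjusted p under 0.05 (2.12% of all genes). DESeq2 also called 0 of the 7, at either threshold. Over all genes, edgeR called 0 and DESeq2 called 41. At an unadjusted p under 0.05, edgeR had 248 of the 11689 genes and DESeq2 had 519. On simulated counts as variable as these libraries, edgeR recovered none of the changes that had been put in, so the lack of calls does not show that the members did not differ. The log2 difference was positive for 3 members and negative for 4, with a median of -0.09, beside 0.03 over all genes. The largest was that of *Sh2d1a*, at -2.37 (SE 1.62, unadjusted p = 0.189, edgeR, adjusted p = 1.0 by Benjamini-Hochberg). *Cd48* stood at 0.78 (SE 0.90), *Slamf1* at -0.52 (SE 0.94) and the other 4 between -0.09 and 0.45, each below its standard error. Without overlap between the experiments, 0 of 7 members were higher in the second (14.7% of all genes) and 1 of 7, *Sh2d1a*, was lower (14.4% of all genes). The signs of the differences of *Ly9*, *Cd84*, *Slamf1*, *Slamf6*, *Slamf7* and *Cd48* each turned when 1 library was left out, in the case of *Cd84* to 0.81 without replicate 2.

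Within each experiment the libraries differed in the same direction for all members. All 7 were lower in CPM in replicate 2 than in replicate 1, by a median of 1.85 log2 units, and in replicate 4 than in replicate 3, by a median of 1.09. This held for 30.1% of all genes, whose median differences were 0.13 and 0.07, and for all 7 T cell markers (6 of 7 when scaled by library size alone), whose median differences were -1.51 and -1.33. The direction was described after the values were seen. Of the 15 epithelial markers, 14 were higher in replicate 2 than in 1 and 15 higher in replicate 4 than in 3. Their sum went from 882 to 7200 CPM and from 162 to 26995 CPM, and without *Lyz1*, which gave most of the last value, from 580.2 to 6862 and from 151 to 5923 CPM. Their part in these differences was not tested. Among the members, *Cd84* had the largest difference in the second experiment (-3.67) and *Slamf1* in the first (-1.65), and *Slamf7* the smallest in the first (-0.52).

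**Figure D4:**
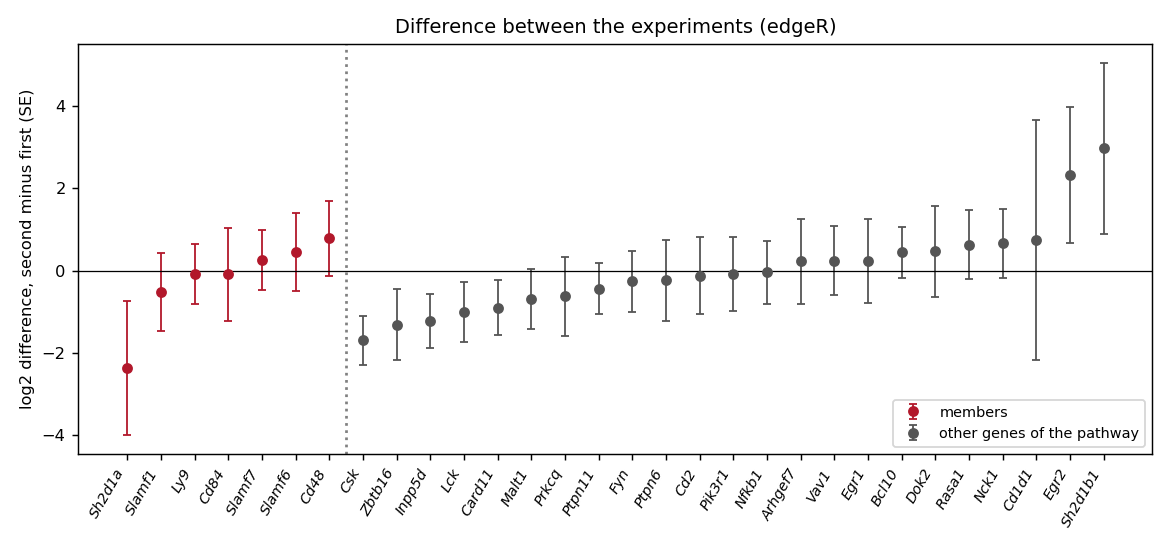
Difference of the second from the first experiment in log2 units, fitted by edgeR with 2 libraries each and drawn with its standard error, for the 7 members (red) and the 23 other genes of the pathway that passed the filter (grey). *Sh2d1a* at -2.37 and *Sh2d1b1* at 2.96 lie at the ends of the range, each with a standard error above 1.6, and 0 of these genes had an adjusted p under 0.05.

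The spread of the members was then set against the T cell content of the libraries. The geometric mean of the 7 T cell markers (*Cd3d*, *Cd3e*, *Cd3g*, *Cd247*, *Lat*, *Thy1* and *Cd28*) was 297, 117, 444 and 167 CPM in replicates 1 to 4. Expressed as a log2 ratio to this mean, the SD over libraries was smaller than that of log2 CPM for 7 of 7 members, which held for 25.3% of all genes tested. It also held for 13 of the 23 other genes of the pathway (56.5%). The marker mean was itself lower in replicates 2 and 4, as were all 7 members, so this count is not independent of that shared direction. The median SD of the members went from 0.83 to 0.56 log2 units, while that of all genes went from 1.04 to 1.35. Without replicate 2, the library with the lowest T cell markers, 5 of 7 members had the smaller SD (27.4% of all genes).
*Slamf1* was the steadiest, at -3.07, -2.48, -2.85 and -3.10 (mean -2.87 ± 0.29, against an SD of 0.77 in log2 CPM). *Slamf7* stood at 0.46, 0.03, -0.77 and 0.12, close to the marker mean, and *Ly9* at -0.25, -0.73, -1.14 and -0.27. For both, replicate 3 was the lowest on this scale although it was the second highest in CPM. *Sh2d1a* still spanned 2.95 log2 units, from -6.93 in replicate 2 to -3.98 in replicate 3, and *Cd84* 2.32 log2 units, from -2.54 in replicate 2 to -0.22 in replicate 1. For *Sh2d1a*, replicates 3 and 4 (-3.98 and -4.12) lay close together and above replicates 1 and 2 (-5.52 and -6.93).

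**Figure D5:**
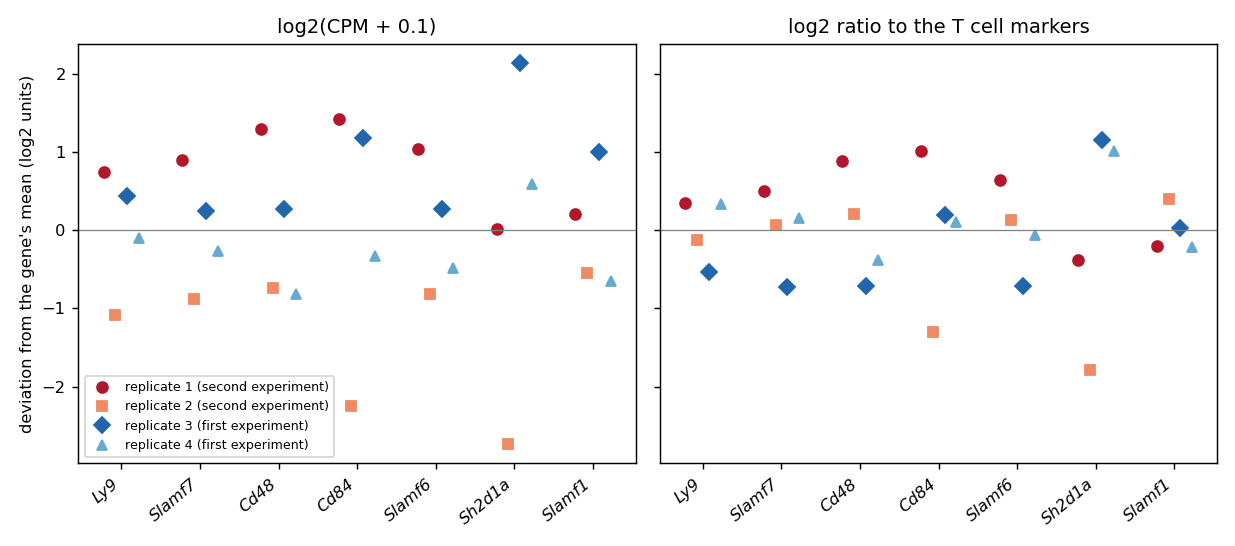
Deviation of each library from the gene's mean over 4 libraries in log2 units, for log2(CPM + 0.1) on the left and for the log2 ratio to the geometric mean of 7 T cell markers on the right. Points of the 7 genes lie closer together on the right, most of all for *Slamf1* (SD 0.29 against 0.77), whereas *Sh2d1a* keeps a range of 2.95 log2 units.

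Other SLAM receptors were near the limit of detection. *Cd244a* (2B4, the other partner of CD48) had 42 counts in replicate 1, 1 in replicate 2 and 0 in replicates 3 and 4. *Slamf8*, a receptor of myeloid cells, had at most 2 counts and *Slamf9* 8 counts in replicate 4 and 0 elsewhere. By contrast *Cd2*, the partner of CD48 on T cells, had 342, 179, 398 and 63.0 TPM (246 ± 153, percentile 91.8), more than *Cd48* in all 4 libraries.
Among the adaptors related to SAP, *Sh2d1b2* had 0 counts in all 4 libraries, which allows at most 0.287 to 0.750 CPM. *Sh2d1b1*, which encodes EAT-2, had 142 and 183 counts in replicates 1 and 2, 0 in replicate 3 and 19 in replicate 4. Its libraries of the second experiment lay above those of the first, opposite to *Sh2d1a*, but its difference did not pass the test (2.96, SE 2.08, adjusted p = 1.0 by edgeR). Plasma cell markers were also higher in the second experiment, and whether RNA of other cells gave the counts of *Sh2d1b1* was not tested. In TPM, *Sh2d1a* exceeded *Sh2d1b1* in replicates 3 and 4 and stood below it in replicates 1 and 2.

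*Fyn*, the kinase that SAP recruits, had 234, 83, 218 and 92.2 TPM (157 ± 80.3, percentile 89.5), above *Sh2d1a* in all 4 libraries. Of the 29 other genes of the pathway, 23 passed the filter, and those with the highest mean TPM were *Egr1* (561), *Pik3r1* (392), *Cd2* (246), *Lck* (212) and *Fyn* (157). *Egr1* encodes an early response factor, *Pik3r1* a regulatory subunit of PI3K and *Lck* the kinase at the T cell receptor. The inositol phosphatase gene *Inpp5d* (SHIP-1), which acts at SLAM receptor tails, had 101 ± 53.2 TPM. *Zbtb16*, the lineage factor whose induction in NKT cells depends on this signal, had 81.2, 19.6, 148 and 55.6 TPM, highest in replicate 3 as was *Sh2d1a*. The geometric mean of the T cell markers was also highest in replicate 3 (444 CPM), so this is not particular to the 2 genes.
*Cd1d1*, the presenting molecule itself, had 109 and 28 counts in replicates 2 and 3 and 0 in replicates 1 and 4. *Cd1d2* had 10 counts in replicate 2 and 0 elsewhere. Between the experiments, 0 of the 23 genes were called by edgeR or by DESeq2, and 10 had a positive and 13 a negative difference. By edgeR, 1 of 23 had an unadjusted p under 0.05 (2.12% of all genes), namely *Csk*, a kinase that restrains LCK and FYN (-1.69, SE 0.60, adjusted p = 1.0). Without overlap, 2 of 23 were higher in the second experiment (14.7% of all genes) and 3 of 23 lower (14.4% of all genes). As a description, 16 of 23 were lower in both replicate 2 than 1 and replicate 4 than 3 (30.1% of all genes), whereas *Egr1* and *Egr2* were higher in both, *Egr1* by 2.25 and 2.26 log2 units. Epithelial markers were higher in the same libraries, and their part in the levels of *Egr1* and *Egr2* was not tested.

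The genes whose pattern over the 4 libraries was most like that of *Sh2d1a* were sought among 8083 other genes with at least 10 counts in each library, by the root mean square distance of centered log2 CPM. They were *Itpkb* (0.11 log2 units), a kinase of inositol trisphosphate, *Fcho1* (0.25), an endocytosis factor, and *Ubash3a* (0.26), which encodes a regulator of T cell receptor signaling, against a median distance of 1.82. *Itpkb* had 57.5, 6.88, 215 and 81.5 CPM in replicates 1 to 4, where *Sh2d1a* had 6.39, 0.860, 28.0 and 9.5. The nearest member to *Sh2d1a* was *Cd84*, at 0.99. The value of *Sh2d1a* in replicate 2 rests on 9 counts, so the order of its nearest genes is uncertain.
For *Ly9* the nearest genes were *Trmt10b* (0.06), *Pcnx3* (0.06) and *Zfp949* (0.06), against a median of 0.86. *Slamf7* was the nearest member, at 0.18, with 71 of the 8083 genes nearer. With 4 libraries, such likeness is a description only.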

How the data were processed

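The values the authors deposited are unnormalized read counts, 1 per gene and library. Their methods name HISAT2 for alignment, the processing notes also Bowtie2, and the table's header gives featureCounts 1.6.4 on RefSeq exons (primary alignments, no strand option); libraries were made with a kit for low RNA input. The submitters' processing notes and the table's annotation give GRCm38, the methods GRCm39; coordinates follow the table. TPM used the exon lengths in the deposited table. Of 6 library columns, 4 match a sample and 2 were not used.

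Samples were grouped by title, as 1 condition in 2 experiments, with the words First and Second in the titles read as experiments. Whether replicates are separate animals is not stated in the labels, so the p-values measure only the spread between these libraries. No pair of libraries agreed within sampling noise (chi-square per degree of freedom at least 113). CPM was computed with TMM factors. The experiments were compared by edgeR's quasi-likelihood test, adjusted by Benjamini-Hochberg over the 11689 genes that reached 10 counts in 2 or more libraries; alternatives were DESeq2, other scalings and filters, and leaving out each library. Levels of different genes were compared by TPM and exact permutation tests. The members, the list of 29 pathway genes and the marker lists were chosen with earlier results of these data known. The text names all members and, of the pathway, the receptors and adaptors, *Fyn*, *Cd2*, *Cd1d1*, *Zbtb16*, genes at 3 counts or less, any called and the 5 highest; *Cd1d2*, *Csk*, *Inpp5d* and *Egr2* fall outside that rule and were named after their values were seen. On simulated counts edgeR's test recovered most changes at a low spread between libraries, but none at the spread measured here. Intervals and the smallest level shown (3 counts) cover counting error only. Tools were R 4.3.3, edgeR 4.0.16, DESeq2 1.42.0, Python 3.11.15, pandas 2.3.3 and scipy 1.17.1.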

Additional observations from a re-analysis of the deposited data

Results flagged for a closer look

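Of 43 results examined for a library far from the others (levels of the members and of the pathway genes, receptor shares and ratios to T cell markers), 1 was singled out; by chance about 2.15 would be. In the case of *Egr2*, a factor induced by antigen receptor and SLAM signals, 149 CPM were measured in replicate 2, against 3.14 to 27.7 CPM elsewhere, a gap of 0.831 of the range. None of the 7 members was singled out in this way.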

How the results depend on the processing

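The count of members and of pathway genes called between the experiments was 0 under all alternatives run, while over all genes edgeR called 60 without a filter, DESeq2 41, and edgeR 0 to 7 when each replicate was left out, where the lone library of an experiment is assumed to vary like the others; the cause was not tested. *Sh2d1a*, with 9 counts in replicate 2, drops out of the fit when 10 counts are required in each library. The sign of the log2 difference turned with library size alone for *Ly9* (0.11) and *Cd84* (0.13). With one replicate left out the difference ran from -1.12 to 0.51 for *Slamf1*, -0.71 to 1.09 for *Slamf6*, -0.85 to 0.88 for *Slamf7*, -1.24 to 0.54 for *Ly9*, -0.52 to 1.46 for *Cd48* and -2.82 to 0.83 for *Cd84*, and kept its sign for *Sh2d1a*. The value of -2.82 for *Cd84* came without replicate 1, which leaves 1 library in the second experiment. Ordered by CPM, without length, 3 of the 6 neighbor steps kept their direction, with *Slamf7* first and *Sh2d1a* last; without replicate 3, *Slamf7* was first and *Sh2d1a* last by TPM. Against *Cd3e* alone the median log2 ratio of the members went from -2.18 to -4.58, *Cd3e* having the highest mean CPM of the markers, and by counts the shares went from 29.9% to 25.2% for *Ly9*, from 28.6% to 37.2% for *Slamf7*, from 21.9% to 8.65% for *Cd48* and from 8.96% to 18.0% for *Cd84*. The counts of members lower in replicates 2 and 4, and of those with a smaller spread relative to T cell markers, were also taken under alternatives chosen after seeing the data: the first stayed at 7 under 3 other scalings, and the second ran from 5 to 7 with one replicate left out. No paired analysis was possible because the study's labels give these libraries a single condition and no shared replicate numbers. Depth limits *Sh2d1a*, *Cd244a*, *Slamf8*, *Slamf9* and *Sh2d1b1*, which had fewer than 10 counts in at least 1 library.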
